A study of Mus musculus with 6 samples.

Results

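The 10 genes described here mark successive steps of the oligodendrocyte lineage, from the dividing progenitor (Pdgfra, Lhfpl3, Cspg4) through its transcription factors (Olig1, Olig2, Sox10) to the committed precursor and the myelinating cell (Gpr17, Ugt8a, Cnp, Omg). They were chosen by name, with earlier results of these data known. All 10 of them were found among 19938 genes of an Affymetrix array, each through 1 probe set whose annotation gives that gene alone. The arrays hold total RNA of cultured neural stem cells, 3 arrays for cells of the third ventricle's subventricular zone and 3 for cells of the lateral ventricle's. Both groups came from wild type female C57BL/6 embryos at embryonic day 17.5 and grew in low-attachment dishes with N2 and B27 supplements and with 20 ng/ml each of FGF and EGF. The labels of the groups differ in region only and name no other treatment or allele. The samples are bulk RNA of cells expanded outside the brain.

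Oligodendrocytes are the myelin-forming glia of the central nervous system. In the embryonic forebrain their progenitors arise from neural stem cells that switch on Olig2 and then Sox10. The progenitors carry the receptor for PDGF-A, divide in response to that ligand, and pass through a short-lived Gpr17-positive stage before they make myelin lipids and proteins. Stem cells expanded with FGF and EGF are known to express Olig2 themselves, so that gene alone does not mark the lineage in such cultures.

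Values are log2 expression units of the authors' RMA summary, and a difference is always the third minus the lateral ventricle on that scale. A gene passed where limma's Benjamini-Hochberg adjusted p over all 19938 genes was below 0.05. As a gauge of background, the 95th percentile of 1027 olfactory receptor genes was taken in each array; it lay between 5.03 and 5.16. All 10 genes lay above it in 6 of 6 arrays, and so did 10 of 11 measured neural stem cell markers, among them Nes, Sox2 and Vim. The 6 arrays had medians between 5.43 and 5.47 over all probe sets. Of the lateral ventricle arrays, number 2 was less like its own group, at r = 0.980 and 0.982 with numbers 1 and 3, than like the third ventricle arrays, at r = 0.991 with each. These correlations run across genes within the same platform and are a description. In such bulk RNA, fewer cells of a type and less RNA per cell cannot be told apart.

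Of the 10 genes, 2 passed, Pdgfra and Lhfpl3, and both were lower in the third ventricle cultures. Over all genes, 0.0853% passed as lower and 0.231% passed in either direction. The difference was negative for 8 of the 10 and positive for Olig1 and Olig2. The median over the 10 genes was -0.88, against -0.02 over all genes. The groups did not overlap for 6 of the 10, Pdgfra, Lhfpl3, Sox10, Gpr17, Ugt8a and Omg, each with the third ventricle cultures lower. Over all genes, 17.0% had groups that did not overlap, and 9.24% had them with the third ventricle lower.

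**Figure D1:**
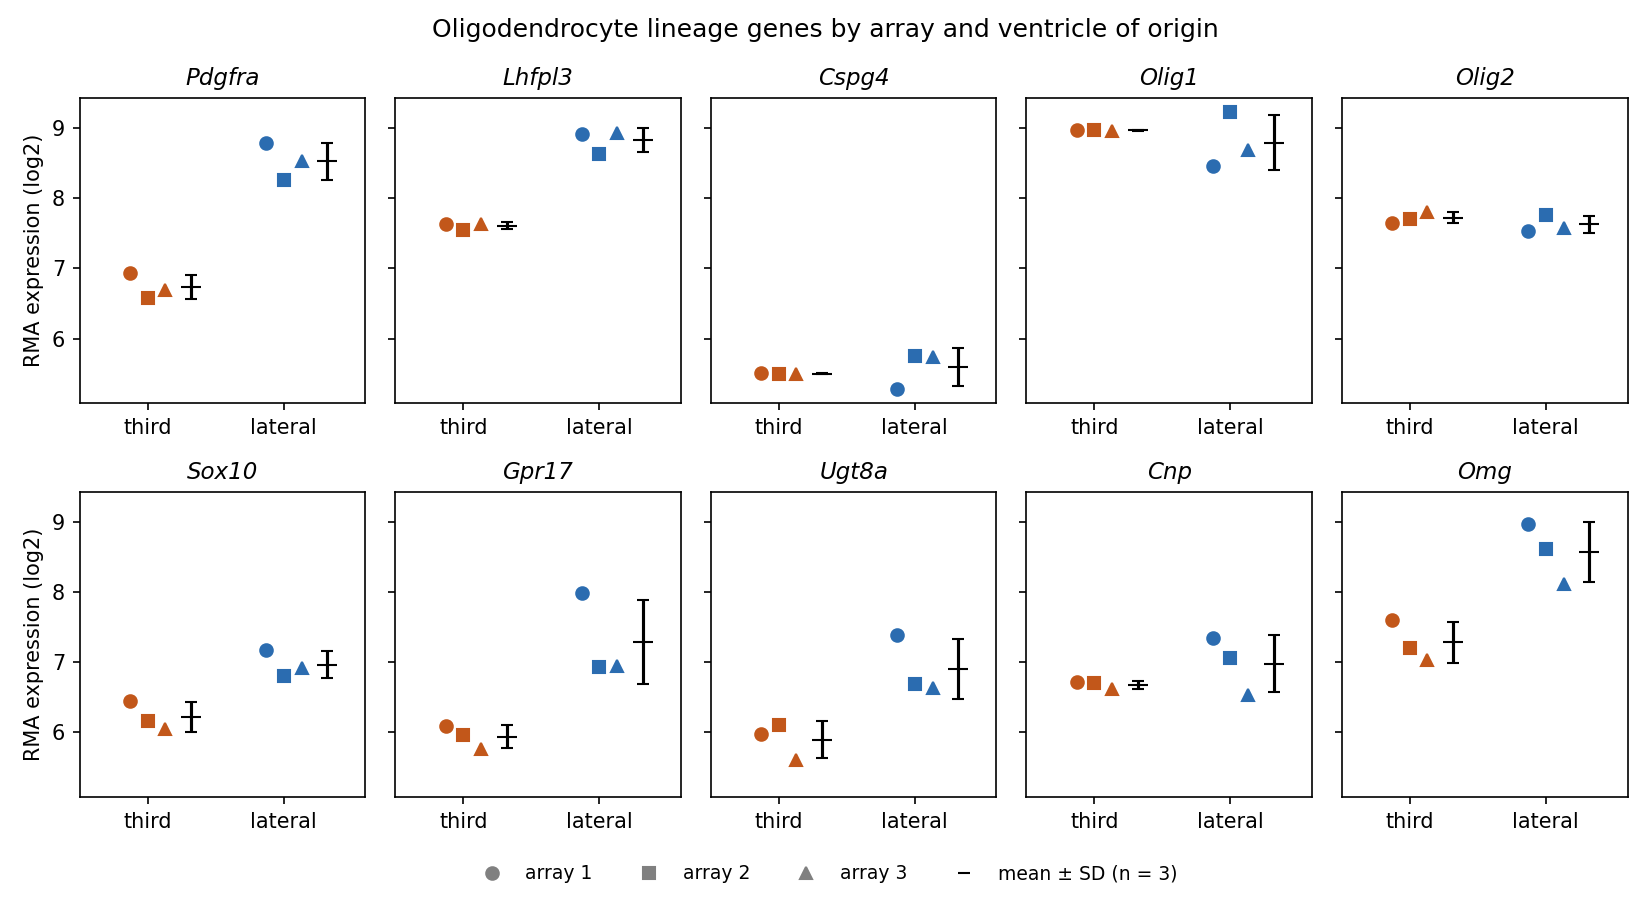
Expression (log2, vertical axis) of the 10 lineage genes in each array, the third ventricle cultures in orange on the left and lateral ventricle cultures in blue on the right of each panel. Symbols mark array 1, 2 and 3 of a group and the black bars are mean ± SD (n = 3). Pdgfra sits at 6.58 to 6.93 in the third and at 8.25 to 8.78 in the lateral ventricle cultures, while the groups overlap for Cspg4, Olig1, Olig2 and Cnp.

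The upstream sequences of 3 of these genes are shown because 2 of them, Pdgfra and Lhfpl3, differed between the regions, and Olig2 is a lineage factor that did not pass. Each is the 250 bases before the annotated start, from RefSeq on GRCm38.p6, plus strand, 5′ to 3′. Pdgfra is at chr5:75152001-75152250, Lhfpl3 at chr5:22745804-22746053 and Olig2 at chr16:91225300-91225549. Capitals mark E-box letters, CANNTG, the motif of basic helix-loop-helix factors such as OLIG2, and the SOX letters ACAAAG and AACAAT, searched on both strands.
Pdgfra: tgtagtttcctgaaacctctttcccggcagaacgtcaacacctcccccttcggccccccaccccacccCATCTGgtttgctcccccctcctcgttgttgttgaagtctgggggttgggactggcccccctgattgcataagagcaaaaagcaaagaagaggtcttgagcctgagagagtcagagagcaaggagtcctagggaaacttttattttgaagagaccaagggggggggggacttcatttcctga
Lhfpl3: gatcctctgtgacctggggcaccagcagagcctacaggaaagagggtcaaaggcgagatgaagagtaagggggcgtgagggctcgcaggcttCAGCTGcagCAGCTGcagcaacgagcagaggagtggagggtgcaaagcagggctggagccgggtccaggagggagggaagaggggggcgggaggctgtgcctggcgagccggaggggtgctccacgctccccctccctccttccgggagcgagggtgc
Olig2: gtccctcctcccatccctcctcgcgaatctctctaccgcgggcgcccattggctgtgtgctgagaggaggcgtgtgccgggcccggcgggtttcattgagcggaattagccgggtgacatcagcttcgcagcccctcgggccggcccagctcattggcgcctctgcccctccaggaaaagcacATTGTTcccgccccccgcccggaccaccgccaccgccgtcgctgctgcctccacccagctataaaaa
The Pdgfra window held 1 E-box, the Lhfpl3 window 2 that lie 3 bases apart, and the Olig2 window 0. The SOX letters occurred once in the Olig2 window and in neither of the others. Among 32851 RefSeq windows of the same length, 66.2% held an E-box and 24.0% the SOX letters, so these matches are common. The GC content was 54.4% for Pdgfra, 67.2% for Lhfpl3 and 66.8% for Olig2, against a median of 52.4%. Windows were at hand for 6 of the 10 genes. In the other 3, Cspg4 held 0 E-boxes, Ugt8a 1 and Cnp 1, and Cnp alone of these held the SOX letters.

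Pdgfra encodes the receptor through which PDGF-A drives progenitor division and migration. It had 6.93, 6.58 and 6.69 in the third ventricle arrays, against 8.78, 8.25 and 8.53 in the lateral ventricle arrays. The highest value of the third ventricle lay more than 1 log2 unit below the lowest lateral one. The means were 6.73 ± 0.18 and 8.52 ± 0.26 (SD, n = 3 each) for the third and the lateral ventricle, a difference of -1.79 (SE 0.15, 95% interval -2.14 to -1.43; limma, adjusted p = 0.00707). On the linear scale this is 3.45-fold lower in the third ventricle cultures. By p-value it ranked 5 of 19938 genes.

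Lhfpl3, a small tetraspan membrane protein of the LHFPL family, is used as a marker of progenitors in single-cell maps of the mouse brain. Its values were 7.64, 7.55 and 7.63 in the third ventricle arrays and 8.92, 8.63 and 8.92 in the lateral ventricle arrays. The spread within each group was small, 0.05 and 0.17 as SD (n = 3 each) for the third and the lateral ventricle. The difference was -1.22 (SE 0.11, 95% interval -1.47 to -0.97; limma, adjusted p = 0.00746), 2.33-fold lower in the third ventricle cultures.

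Cspg4 encodes the NG2 proteoglycan, found on progenitors and also on the mural cells of blood vessels. It had 5.51, 5.50 and 5.49 in the third ventricle arrays, against 5.28, 5.76 and 5.74 in the lateral ventricle arrays. The third ventricle values lay inside the lateral range, and the difference was -0.09 (95% interval -0.41 to 0.23; limma, adjusted p = 0.831). The gene was dim, within 1 log2 unit of the background gauge in every array, where RMA compresses differences. The interval does not reach the differences of Pdgfra or Lhfpl3. It bounds the measured signal only, since such compression could hide a larger difference in RNA.

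Olig1 and Olig2 are neighbouring genes for basic helix-loop-helix factors of the lineage. Olig1 had 8.97, 8.97 and 8.96 in the third ventricle arrays and 8.46, 9.23 and 8.69 in the lateral ventricle arrays. Olig2 had 7.65, 7.70 and 7.80 in the third ventricle arrays, against 7.53, 7.76 and 7.58 in the lateral ventricle arrays. The groups overlapped for both. The difference was 0.17 for Olig1 (95% interval -0.24 to 0.59; limma, adjusted p = 0.744) and 0.09 for Olig2 (95% interval -0.14 to 0.33; limma, adjusted p = 0.754). Neither interval reaches below -0.24.

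Sox10, the factor that follows Olig2 and drives the myelin programme, had 6.45, 6.16 and 6.05 in the third ventricle arrays and 7.17, 6.80 and 6.91 in the lateral ventricle arrays. The groups did not overlap, with the third ventricle lower. The difference of -0.74 (SE 0.14, 95% interval -1.07 to -0.42) did not pass (limma, adjusted p = 0.118).

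Gpr17 encodes a G protein-coupled receptor of committed precursors that is switched off before myelination. It had 6.09, 5.96 and 5.76 in the third ventricle arrays, against 7.98, 6.93 and 6.94 in the lateral ventricle arrays. The lateral cultures differed among themselves by 1.05, with array 1 above the other 2, and still did not overlap the third ventricle's. The means were 5.94 ± 0.17 and 7.29 ± 0.60 (SD, n = 3 each) for the third and the lateral ventricle. The difference of -1.35 (SE 0.27, 95% interval -1.97 to -0.73) did not pass (limma, adjusted p = 0.133).

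Ugt8a encodes the enzyme that makes galactosylceramide, a main lipid of myelin. Its values were 5.97, 6.11 and 5.60 in the third ventricle arrays and 7.39, 6.69 and 6.63 in the lateral ventricle arrays. Here too lateral ventricle array 1 was the highest and the groups did not overlap. The difference was -1.01 (SE 0.22, 95% interval -1.51 to -0.50; limma, adjusted p = 0.175).

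Omg encodes oligodendrocyte myelin glycoprotein, a ligand of the Nogo receptor that neurons also make. It had 7.60, 7.20 and 7.03 in the third ventricle arrays, against 8.97, 8.61 and 8.11 in the lateral ventricle arrays. The groups did not overlap, and the difference of -1.29 (SE 0.23, 95% interval -1.81 to -0.76) came nearest to passing among the 8 genes that did not (limma, adjusted p = 0.0913).

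Cnp, a phosphodiesterase of the myelin sheath that appears before compact myelin, had 6.72, 6.70 and 6.61 in the third ventricle arrays and 7.35, 7.05 and 6.54 in the lateral ventricle arrays. The lateral value of array 3 lay below all values of the third ventricle. The difference was -0.30 (95% interval -0.74 to 0.13; limma, adjusted p = 0.550).

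**Figure D2:**
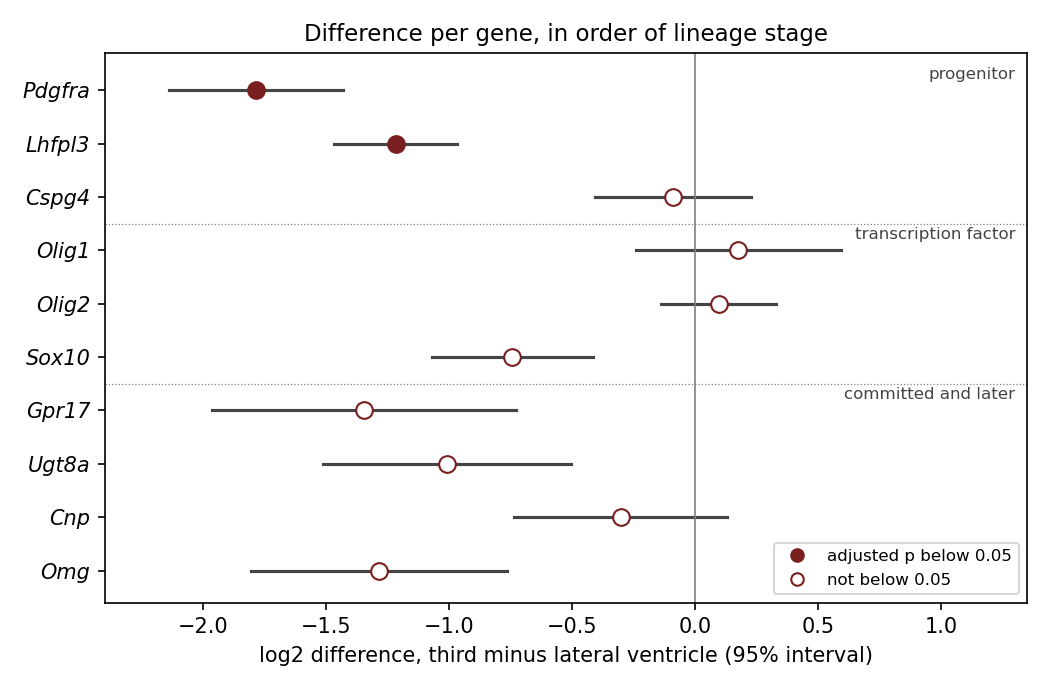
Log2 difference, the third minus the lateral ventricle (horizontal axis), for the 10 genes in order of lineage stage, with 95% intervals from limma over 6 arrays. Filled points have an adjusted p below 0.05 and open points do not: Pdgfra (-1.79) and Lhfpl3 (-1.22) are filled, and the intervals of Cspg4, Olig1, Olig2 and Cnp include 0.

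The order of stage did not order the differences. Each of the 3 stages held a gene whose groups did not overlap and at least 1 whose groups did. Root mean square distances between genes were taken over the 6 arrays, after each gene's mean was taken off. Among the 10 genes, the distances between Cspg4, Olig1 and Olig2 were 0.16 to 0.20. The distance is not scaled by a gene's spread, so genes with small changes lie close whatever their pattern. The differences of Cspg4 and Olig1 had opposite signs, -0.09 and 0.17. Gpr17, Ugt8a and Omg had distances of 0.22 to 0.25 from each other, and 0.33, 0.46 and 0.36 from Pdgfra. Over the same 6 arrays and all genes, the 3 patterns nearest to Pdgfra were those of Tmeff1, Dnm3 and Stk32a, at distances of 0.16, 0.19 and 0.19. The 3 nearest to Lhfpl3 were Ppfibp1 (0.14), Dmrta1 (0.15) and Fhl1 (0.16). The 3 nearest to Gpr17 were Crebrf (0.12), Plppr1 (0.15) and Cdo1 (0.19). These distances share the arrays and the difference between the regions, and carry no test.

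The 2 calls depended on single arrays. With lateral ventricle array 2 left out, 6 of the 10 genes passed, all as lower: Pdgfra, Lhfpl3, Sox10 (adjusted p = 0.0116), Gpr17 (adjusted p = 0.0109), Ugt8a (adjusted p = 0.0223) and Omg (adjusted p = 0.0200, limma for each). In that fit 3.88% of all genes passed as lower and 8.25% in either direction. With array 1 of the third ventricle left out, Pdgfra alone passed (0.0201% of all genes as lower). With array 2 or 3 of the third ventricle left out, none of the 10 passed in limma (0.0100% of all genes as lower in each), with 6 of 10 at an unadjusted p below 0.05, and Pdgfra had an adjusted p of 0.0858 and 0.0798. Pdgfra and Lhfpl3 both passed without lateral ventricle array 1 (0.0502% of all genes as lower) and without lateral ventricle array 3 (0.0401%). With arrays weighted by their spread, Gpr17 passed besides them (limma, adjusted p = 0.0426; 0.346% of all genes as lower). Over the 6 fits that leave out 1 array, the difference lay between -1.92 and -1.66 for Pdgfra, -1.31 and -1.17 for Lhfpl3, and -1.51 and -1.08 for Omg.

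In lateral ventricle array 2 these 6 genes lay nearer the other lateral arrays than the third ventricle. Its position was expressed as a percentage of the way from the third ventricle mean, at 0%, to the mean of lateral ventricle arrays 1 and 3, at 100%. It lay at 79.0% for Pdgfra, 78.2% for Lhfpl3, 70.6% for Sox10, 65.0% for Gpr17, 71.1% for Ugt8a and 106% for Omg. No position is given for Cspg4, Olig1, Olig2 and Cnp, which did not pass in that fit. Among all 773 genes called lower without that array it was nearer the lateral side for 147, or 19.0%, with a median position of 9.80%. Among all 1644 genes called in either direction it was nearer the lateral side for 301, or 18.3%, with a median position of 10.3%. The 19 measured cell cycle genes all passed as higher in that fit, as did 871 of all 19938 genes. For these 19, array 2 was nearer the lateral side for 0, with a median position of -2.46%. The 6 genes are those of the 10 that passed in that fit, and their groups also did not overlap with array 2 included, so their position was partly fixed by how they were picked. No test of this contrast was made.

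**Figure D3:**
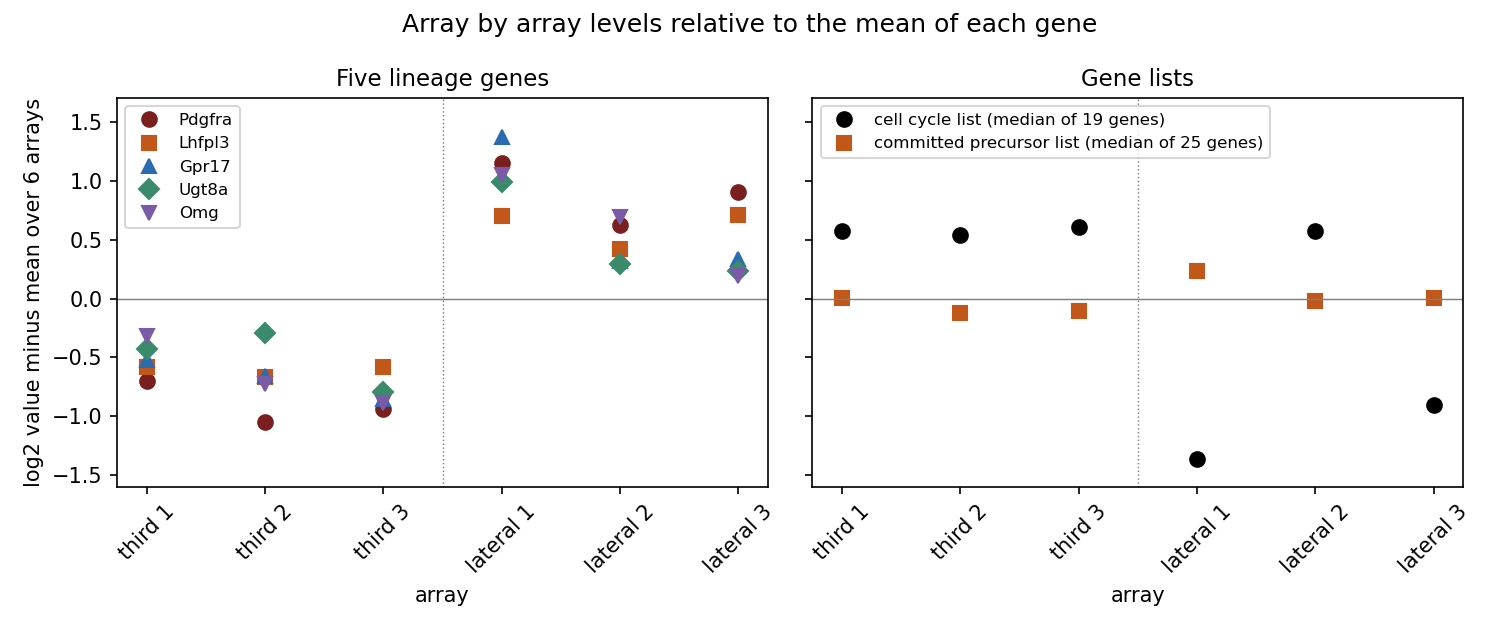
Log2 value minus the gene's mean over 6 arrays (vertical axis) in each array, the third ventricle arrays left of the dotted line and lateral ventricle arrays right of it. Left, Pdgfra, Lhfpl3, Gpr17, Ugt8a and Omg lie below 0 in all arrays of the third ventricle and above 0 in the 3 lateral ones. They are taken from the 6 genes whose groups did not overlap, and the genes with overlapping groups are not shown. Right, the median of the cell cycle list is near 0.6 in the third ventricle arrays and in lateral ventricle array 2, and at -1.36 and -0.90 in lateral ventricle arrays 1 and 3. Orange squares are the median of the committed precursor list, highest in lateral ventricle array 1 at 0.23.

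Cell cycle genes moved with the arrays as well. Of 19 measured, all had a positive difference, with a median of 1.12, and 0 passed in limma, while 16 had an unadjusted p below 0.05, as did 12.6% of all genes. Pcna differed by 0.56 and Top2a by 1.17, both being genes of DNA replication and mitosis. After each gene's mean was taken off, the median over these genes was 0.57, 0.54 and 0.61 in the third ventricle arrays, against -1.36, 0.57 and -0.90 in the lateral ventricle arrays. Lateral ventricle array 2, at 0.57, thus lay within the third ventricle range, and its values were 8.25 for Pdgfra and 8.63 for Lhfpl3. The part of the cell cycle genes in the differences of the 10 genes was not tested.

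Other genes of the progenitor stage were lower in part. Of 29 measured, 3 passed, all lower in the third ventricle cultures (0.0853% of all genes). The difference was negative for 20, and the median was -0.22. Pcdh15, a protocadherin, had 5.96, 5.66 and 5.66 in the third ventricle arrays, against 7.41, 7.32 and 7.07 in the lateral ventricle arrays, a difference of -1.51 (SE 0.13; limma, adjusted p = 0.00707). A second probe set of the gene differed by -0.11, so this result rests on 1 of 2 probe sets. Rlbp1, a retinaldehyde-binding protein, had 5.32, 5.49 and 5.44 in the third ventricle arrays and 6.34, 6.80 and 6.71 in the lateral ventricle arrays, a difference of -1.20 (SE 0.13; limma, adjusted p = 0.0191). Myt1, a zinc finger factor of progenitors and neurons, had 6.53, 6.18 and 6.25 in the third ventricle arrays, against 7.58, 7.57 and 7.24 in the lateral ventricle arrays, a difference of -1.14 (SE 0.14; limma, adjusted p = 0.0255). In these 3 genes the groups did not overlap, and lateral ventricle array 2 was within or above the range of the other lateral arrays.

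In the progenitor list 16 of the 29 had groups that did not overlap with the third ventricle lower (9.24% of all genes), and 1, Sox5, with it higher (7.77% of all genes). Among those that did not pass, named after their values were seen, were the cysteine dioxygenase Cdo1 (-1.51, adjusted p = 0.0913), the matrix protein tenascin-R, Tnr (-1.58, adjusted p = 0.231), the proteoglycan versican, Vcan (-0.70, adjusted p = 0.214), and Sox6 (-0.78, adjusted p = 0.101, limma for each), a factor that holds progenitors back from maturing. Tnr was above the gauge in array 1 alone of the third ventricle and in all 3 lateral arrays. Further genes of the same stage had differences near 0. Ptprz1, a receptor phosphatase, differed by -0.08 and the homeobox factor Nkx2-2 by 0.13. Cspg5 differed by -0.09, though it is among the 16 whose groups did not overlap. Once lateral ventricle array 2 was left out, 9 of the 29 passed as lower (3.88% of all genes). The count was 2 without lateral ventricle array 1 (0.0502% of all genes as lower) and 2 without array 3 (0.0401%). It was 1 without array 1 of the third ventricle (0.0201%), and 0 without array 2 or 3 of it (0.0100% each, limma).

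Genes of the committed precursor showed no call between the regions. Of 25 measured, 0 passed in limma and 6 had an unadjusted p below 0.05 (12.6% of all genes). The difference was negative for 17, and the median was -0.16. The kinase Fyn differed by 0.13 and the Wnt effector Tcf7l2 by 0.04. The groups did not overlap for 7 (17.0% of all genes), 6 of them lower in the third ventricle (9.24% of all genes). Zfp488, a zinc finger factor, had 6.23, 6.02 and 5.86 in the third ventricle arrays, against 6.82, 6.52 and 6.54 in the lateral ventricle arrays, a difference of -0.59 that did not pass (limma, adjusted p = 0.185). Once lateral ventricle array 2 was left out, 4 of the 25 passed, Zfp488, Itpr2 and Bmp4 as lower and Bmper as higher. In that fit 8.25% of all genes passed in either direction and 3.88% as lower.

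Lateral ventricle array 1 held the highest values of many precursor genes. Bcas1, a marker of newly formed oligodendrocytes, had 6.65, 6.72 and 6.70 in the third ventricle arrays, against 8.50, 6.81 and 6.98 in the lateral ventricle arrays. Enpp6, a phosphodiesterase of the same stage, had 4.04, 3.96 and 4.05 in the third ventricle arrays and 5.79, 3.98 and 4.26 in the lateral ventricle arrays, above the gauge in lateral ventricle array 1 alone. Bmp4, a ligand made by committed precursors, had 4.96, 4.96 and 5.20 in the third ventricle arrays, against 6.93, 5.29 and 5.65 in the lateral ventricle arrays. For these 3 genes, which were named after their values were seen, that array was at least 1 log2 unit above all others, as it was for Gpr17 and Tnr. The margin was not particular to the lineage. It was met by 3 of the 25 precursor genes (12%) and by 2 of 12 astrocyte markers (16.7%), against 22 of all 19938 genes (0.110%). The astrocyte markers were Apoe, which carries lipid, at 11.11 in lateral ventricle array 1 and 9.58 in the next highest array, and the water channel Aqp4, at 6.81 and 5.49. It was the highest array for 14 of the 25 precursor genes (56.0%), 16 of the 29 further progenitor genes (55.2%), 6 of the 10 lineage genes, 8 of the 12 inhibitors of the lineage and 7 of the 12 astrocyte genes, against 19.5% of all genes. The same array had the lowest cell cycle median. These are descriptions of 1 array with no replicate.

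**Figure D4:**
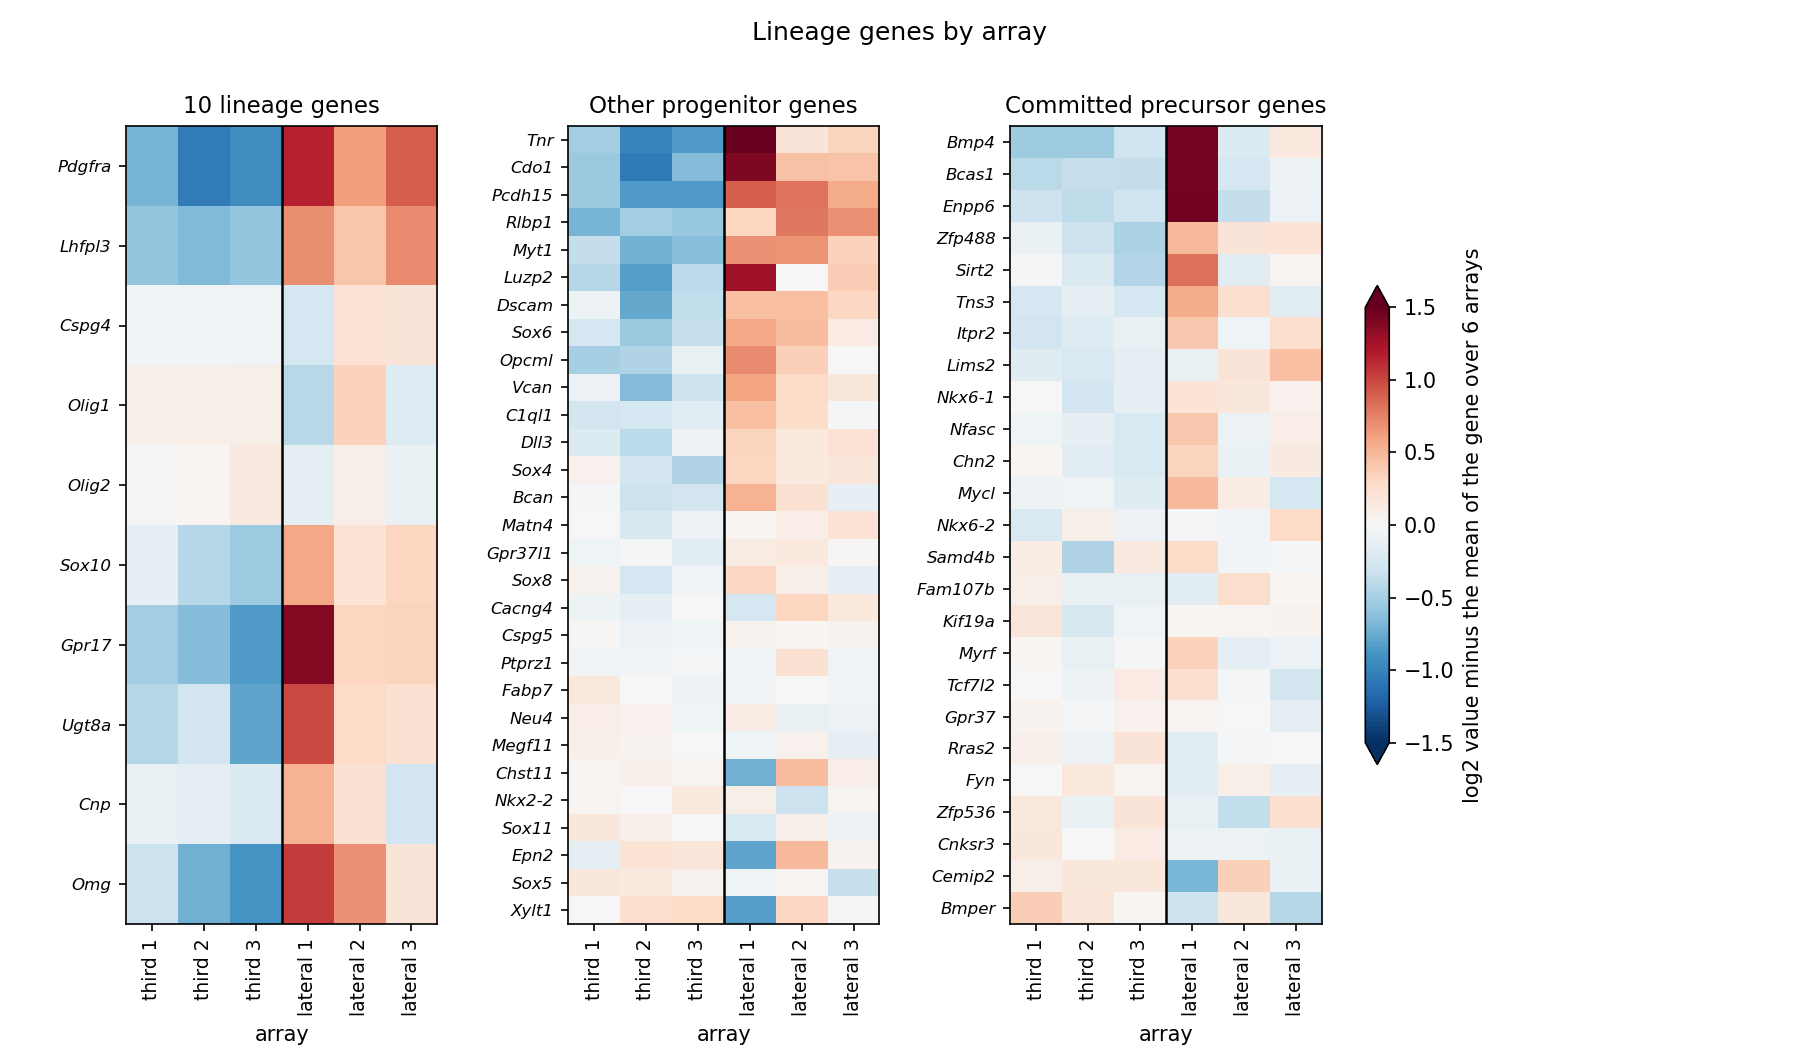
Log2 value minus the gene's mean over 6 arrays (colour, red above and blue below the mean, limited to 1.5 either way) for the 10 lineage genes, 29 other progenitor genes and 25 committed precursor genes, with the third ventricle arrays left of the black line. The last 2 panels are sorted by the difference between the regions. In the precursor panel the dark red cells of Bmp4, Bcas1 and Enpp6 lie in lateral ventricle array 1 only.

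Myelin genes gave no call, and part of them lay at background. Of 21 measured, 7 lay below the gauge in all 6 arrays, among them Mag, Mobp and Opalin, and 10 above it in all 6. None passed in limma, with 5 at an unadjusted p below 0.05 (12.6% of all genes) and a median of -0.10. Pmp22, a protein of peripheral myelin, differed by -0.32. Trf, the iron carrier transferrin, made by oligodendrocytes and by choroid plexus, differed the other way. It had 7.33, 7.73 and 7.60 in the third ventricle arrays, against 6.14, 6.59 and 6.69 in the lateral ventricle arrays, a difference of 1.08 that did not pass (limma, adjusted p = 0.0634). It was the only myelin gene to pass once lateral ventricle array 2 was left out, in a fit where 8.25% of all genes passed. Mbp, which encodes myelin basic protein, was dim, with a difference of -0.12.

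Ligands and partners of these genes gave no call. Among 6 other PDGF genes 0 passed in limma, 1 had an unadjusted p below 0.05 (12.6% of all genes), and the median was 0.04. Pdgfa, the ligand of the receptor, had 6.19, 6.06 and 6.13 in the third ventricle arrays and 6.36, 6.42 and 6.70 in the lateral ventricle arrays, a difference of -0.36 (limma, adjusted p = 0.301) with groups that did not overlap. Pdgfc, another ligand, differed by 0.23, and Pdgfrb, the other receptor, lay below the gauge in 6 of 6 arrays. Of 10 genes of the Nogo receptor pathway, to which Omg signals, 0 passed, and the median was -0.07. An unadjusted p below 0.05 was reached by 1 (12.6% of all genes). Rhoa differed by 0.05 and Rock1 by -0.0049, both downstream effectors. The gene with an unadjusted p below 0.05 was Tnfrsf19, at -0.45 (limma, adjusted p = 0.279). Of the 10 genes, 6 had a negative difference and 4 a positive one. Of 4 other Lhfpl genes 0 passed, 1 had an unadjusted p below 0.05 (12.6% of all genes), and the median was -0.11. Lhfpl2 had 5.35, 5.64 and 5.71 in the third ventricle arrays, against 6.02, 6.12 and 6.48 in the lateral ventricle arrays, a difference of -0.64 (limma, adjusted p = 0.199), and Lhfpl4 differed by -0.10. With lateral ventricle array 2 left out, Lhfpl2 passed as lower (3.88% of all genes). No gene of the PDGF and Nogo receptor lists passed in that fit (8.25% of all genes in either direction).

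Of 12 genes that restrain the lineage, 0 passed in limma, 5 had an unadjusted p below 0.05 (12.6% of all genes), and the median was -0.16. The groups did not overlap for 3 of the 12, near the share of all genes (17.0%). Id3 and Hes1 had the third ventricle higher (7.77% of all genes) and Id2 had it lower (9.24%). Id3, an inhibitor of basic helix-loop-helix factors, had the smallest p of the list. It averaged 7.66 ± 0.23 in the third and 6.88 ± 0.24 in the lateral ventricle arrays (SD, n = 3 each), a difference of 0.78 that did not pass (limma, adjusted p = 0.140). Hes1, a Notch target, differed by 0.50 (limma, adjusted p = 0.276). Id2, of the same family as Id3, had 8.10, 7.43 and 6.92 in the third ventricle arrays, against 8.84, 8.13 and 8.13 in the lateral ventricle arrays, a difference of -0.89 (limma, adjusted p = 0.336). Hey1, also a Notch target, differed by -0.61 (limma, adjusted p = 0.366), and the groups overlapped. With lateral ventricle array 2 left out, Hey1 passed as lower and Id3 as higher, in a fit where 8.25% of all genes passed.

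Pdgfra also marks fibroblasts and Cspg4 mural cells, so markers of other cell types were read beside them. No marker of the 7 lists passed in limma. With lateral ventricle array 2 left out, 2 neuronal markers passed as lower, 1 astrocyte marker as higher and 1 as lower, 2 stem cell markers as higher and 1 as lower, and none of the other 4 lists. In that fit 8.25% of all genes passed. Of 10 mural cell markers, 6 lay below the gauge in all arrays, Pdgfrb and Rgs5 among them. Of the 10, 2 had an unadjusted p below 0.05 (12.6% of all genes). The difference was positive for 9 of the 10, with a median of 0.05. The groups did not overlap for 3 (17.0% of all genes), each with the third ventricle higher (7.77%). Acta2, 1 of these 3, differed by 0.77, and Notch3, whose groups overlapped, by 0.08. Of 10 fibroblast and meningeal markers, 5 lay below the gauge in all arrays, including Dcn, Lum and Foxc1. Among the 10, 0 had an unadjusted p below 0.05, with Col1a1 at 0.05 and Col1a2 at -0.01. Of 10 endothelial markers 8 lay below it in all arrays, Pecam1 and Cdh5 among them, and 1 had an unadjusted p below 0.05 (Flt1 0.29, Esam -0.25). Of 9 markers of microglia and blood, 6 lay below it in all arrays, Csf1r, Aif1 and Ptprc among them, and 0 had an unadjusted p below 0.05 (Cx3cr1 0.03, Tyrobp -0.03).

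On the linear scale, the summed level of the mural list was 380 to 439 in the third and 312 to 354 in the lateral ventricle arrays, that of the fibroblast list 294 to 308 in the third and 280 to 302 in the lateral, that of the endothelial list 206 to 229 in the third and 194 to 223 in the lateral, and that of the microglial and blood list 212 to 246 in the third and 230 to 239 in the lateral. Of each list, 5 to 8 members lay below the gauge in all arrays, and the part of these cell types in the differences of Pdgfra and Cspg4 was not tested.

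The sum of 12 neuronal markers was 757 to 849 in the third and 901 to 1187 in the lateral ventricle arrays, and 9 of the 12 had a negative difference, with a median of -0.09. Of the 12, 5 had an unadjusted p below 0.05 (12.6% of all genes). The groups did not overlap for 4 (17.0% of all genes), 3 with the third ventricle lower (9.24%) and 1 with it higher (7.77%). Dcx, the doublecortin of young neurons, differed most. It averaged 5.36 ± 0.41 in the third and 6.99 ± 0.65 in the lateral ventricle arrays (SD, n = 3 each), with groups apart, a difference of -1.63 that did not pass (limma, adjusted p = 0.136) and was near that of Pdgfra in size. Tubb3 differed by -0.60 and Snap25 by -0.25, while the RNA-binding protein Elavl4 was the marker with groups apart and the third ventricle higher, by 0.41. The part of neuronal cells in the differences of the lineage genes, Omg among them, was not tested.

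The sum of 12 astrocyte markers was 4064 to 4615 in the third and 3121 to 6264 in the lateral ventricle arrays. Of the 12, 2 had an unadjusted p below 0.05 (12.6% of all genes). The difference was negative for 8 of the 12, with a median of -0.10. Apoe differed most, by -1.35, followed among the negative ones by Aqp4 at -0.59 and Aldh1l1, an enzyme of folate metabolism, at -0.43. The groups did not overlap for 2 of the 12 (17.0% of all genes), 1 with the third ventricle lower (9.24%) and 1 with it higher (7.77%). They overlapped for Apoe and Aqp4, and were apart for Aldh1l1. Sparcl1 was higher in the third ventricle cultures with groups apart, at 0.94, and Aldoc differed by 0.17. None of these passed in limma, and their part in the differences of the lineage genes was not tested. The 11 stem cell markers summed to 13981 to 15520 in the third and 14065 to 14658 in the lateral ventricle arrays. Of these, 2 had an unadjusted p below 0.05 (12.6% of all genes). The difference was negative for 7 of the 11, with a median of -0.04 and a range of -0.59 to 0.53. The groups did not overlap for 3 (17.0% of all genes), 1 with the third ventricle lower (9.24%) and 2 with it higher (7.77%). In log2 units Fabp7 differed by 0.05 and Vim by 0.19.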

How the data were processed

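Total RNA of 6 cultures was extracted with Trizol and amplified to biotinylated cDNA with the NuGEN WT-Ovation Pico system from 500 pg to 50 ng, per the labels' protocols. The authors deposited log2 values per probe set; the submitters' processing notes name RMA and Affymetrix Expression Console 1.1. RMA subtracts background, brings arrays to a common distribution and combines the probes of a set, which compresses dim genes. The genome build is not given in the sources used here.

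Of 35556 probe sets, 21789 had 1 gene symbol in the platform annotation, 1621 several and 12146 none. The probe set with the highest mean stood for each gene, giving 19938 genes, of which 999 had several. Dim genes were kept. The regions were compared with limma 3.58.1 (R 4.3.3), with Benjamini-Hochberg adjustment and a threshold of 0.05. The steps were tested on simulated data. Precision is limited by 3 arrays per group. The labels call the arrays biological replicates but link no replicate number with an animal. The p-values thus reflect only how far these cultures vary, part of which may be technical. An exact permutation of 3 against 3 cannot go below p = 0.1.

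The 10 genes and the further gene lists were chosen with earlier results of these data known. All 10 genes were named, and from each list the genes that passed (at most 6 for lineage and pathway lists, at most 3 for the others), or else the 2 with the highest mean, and the 3 nearest patterns; other genes are examples chosen after their values were seen. Alternatives were the mean over probe sets, a filter on the lowest 40% of genes, 3 normalizations, 2 variance priors, weighting of the arrays, the replicate number as a block and each array left out in turn.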

Additional observations from a re-analysis of the deposited data

How the results depend on the processing

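Of the 19938 genes, 46 passed. The count was 0 with no variance prior (1826 at an unadjusted p below 0.05) and 158 with array weights, and ranged between 4 and 1644 when 1 array was left out. Of the 10 lineage genes, 2 passed; 0 did with no variance prior (6 at an unadjusted p below 0.05), and 0 to 6 when 1 array was left out. Pdgfra and Lhfpl3 both passed with the mean over probe sets, without the lowest 40% of genes, with quantile normalization again, cyclic loess, median centring, a trended robust prior and array weights, and Gpr17 also passed with array weights (adjusted p = 0.0426). With no variance prior the adjusted p was 0.282 for Pdgfra and 0.237 for Lhfpl3. The median difference over the 10 genes stayed between -0.97 and -0.70 in all 15 alternatives, and each gene kept its sign in all 15. With the replicate block 57 genes and 3 of the 10 passed, Omg (adjusted p = 0.0192) besides Pdgfra and Lhfpl3. Whether the replicate numbers pair the samples was not settled. Same-numbered arrays correlated weakly, at 0.24, 0.11 and 0.07, in their deviations from the group means. Each array correlated best with its own number, and differently numbered arrays lay between -0.15 and 0.04. Dim genes such as Cspg4 and most myelin genes lie too near background for small differences to be seen.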
